A study of Mus musculus with 12 samples.

Results

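The genes described here are 7 secreted or shed signalling proteins measured while bone marrow progenitors become granulocytes: the chemokines Cxcl2, Ccl3, Ccl4 and Ccl6, the interleukin-6 family cytokine Osm (oncostatin M), and the tumour necrosis factor (TNF) superfamily ligands Tnf and Tnfsf14 (also called LIGHT). They were taken by gene symbol from the array's probe table, and each had a single row of values. The 7 genes are part of 19937 genes tested. RNA came from untreated C57BL/6 mouse bone marrow cells that were sorted and used without culture, in 4 populations with 3 arrays each, 12 arrays in all: LSK cells, promyelocytes, myelocytes and granulocytes. LSK cells are stem and progenitor cells, sorted as negative for lineage markers and positive for Sca1 and cKit. Promyelocytes, myelocytes and granulocytes were sorted on Gr-1, cKit, CD34 and CD16/32 after cells stained for lineage markers or Sca1 had been gated out. The ages and the number of the animals are not given in the sources used here, and the labels call the arrays of a population biological replicates without saying that they came from separate animals. Each p-value is thus set against the spread among these arrays, part of which may be technical.

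Chemokines are small proteins that bind receptors on leukocytes and direct their movement. Neutrophils, the main cells of the granulocyte population, are both targets and sources of chemokines. Cxcl2 attracts neutrophils through the receptor Cxcr2, Ccl3 and Ccl4 are macrophage inflammatory proteins, of which Ccl3 acts through Ccr1, and Ccl6 is a mouse CC chemokine that acts through Ccr1. Oncostatin M signals through gp130, the product of Il6st, with Osmr or Lifr. TNF is made as a membrane protein, is shed by a protease and acts through Tnfrsf1a and Tnfrsf1b, whereas LIGHT binds Tnfrsf14 and Ltbr. Several of these genes are induced rapidly in activated leukocytes by NF-kB, and many of their messages carry AU-rich elements that bring about fast decay.

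Levels are deposited log2 values, so a difference of 1 is a 2-fold change. They are compared for 1 gene between populations and never between genes, because probes differ in their response. A gene was called higher or lower at an adjusted p under 0.05 (limma, Benjamini-Hochberg over all 19937 genes in that comparison) and a fold of at least 2. Signal of 4.51 or less was taken as dim, which is the 95th percentile of the means of 1194 olfactory and vomeronasal receptor genes. Array medians were 4.96 to 5.12. Lists of stage markers were drawn up with earlier results of these arrays known, so they are no independent check of the labels. The mean of the promyelocyte list (Mpo, Elane and others) was 11.4 to 12.0 in promyelocytes. That of the myelocyte list (Ltf, Camp and others) was 12.5 in myelocytes, and that of the granulocyte list (Mmp8, Mmp9 and others) was 12.0 to 12.1 in granulocytes. Each of these means lay above its value in the other populations. The list for LSK cells (Kit, Flt3, Hlf and others) read 9.36 to 9.92 in LSK cells and 7.96 or less elsewhere, and it holds Kit, whose product was used for sorting. Array 3 of LSK cells and array 3 of promyelocytes stood apart from their groups in immediate early genes such as Fos and Egr1, a list of 12 genes chosen after the values were seen. Its mean was 9.37, 9.25 and 7.89 in LSK cells and 7.08, 7.17 and 7.96 in promyelocytes, 8.03 to 8.26 in myelocytes and 8.76 to 9.00 in granulocytes. Array 3 of LSK cells was also low in the promyelocyte list, at 8.20 against 10.4 and 10.9 on the other arrays. For the 7 genes, results that rest on these 2 arrays are also given without them. Values of other genes are given on all arrays only, also where array 3 stands apart.

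Promoter sequence was given for 5 of the 7 genes, in the RefSeq promoter table on GRCm38.p6. The 200 bases before the start site are shown because these genes are known for inducible transcription. They were searched for the kappa B motif (NF-kB), TGANTCA (AP-1), TTGCNNAA (C/EBP) and GAGGAA (PU.1) on both strands, and for TATAA on the forward strand in the last 50 bases. Each sequence runs in the gene's own direction and ends at the base before the start site, with matches in capitals.
Cxcl2: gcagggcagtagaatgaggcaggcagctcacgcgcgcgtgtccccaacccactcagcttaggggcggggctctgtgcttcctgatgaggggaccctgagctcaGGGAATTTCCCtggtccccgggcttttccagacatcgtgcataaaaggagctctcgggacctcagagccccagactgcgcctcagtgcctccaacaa
Ccl3: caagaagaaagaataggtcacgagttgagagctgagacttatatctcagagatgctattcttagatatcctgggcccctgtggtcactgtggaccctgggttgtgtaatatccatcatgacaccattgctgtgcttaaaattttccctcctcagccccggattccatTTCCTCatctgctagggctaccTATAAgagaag
Ccl6: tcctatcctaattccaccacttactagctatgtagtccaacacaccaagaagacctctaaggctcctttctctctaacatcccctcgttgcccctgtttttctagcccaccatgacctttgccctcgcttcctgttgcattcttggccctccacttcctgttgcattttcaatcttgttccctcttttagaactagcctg
Tnf: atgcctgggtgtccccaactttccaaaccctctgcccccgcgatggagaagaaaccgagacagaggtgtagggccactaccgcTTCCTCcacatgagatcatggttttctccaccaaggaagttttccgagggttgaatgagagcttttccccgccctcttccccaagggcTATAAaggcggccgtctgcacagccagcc
Tnfsf14: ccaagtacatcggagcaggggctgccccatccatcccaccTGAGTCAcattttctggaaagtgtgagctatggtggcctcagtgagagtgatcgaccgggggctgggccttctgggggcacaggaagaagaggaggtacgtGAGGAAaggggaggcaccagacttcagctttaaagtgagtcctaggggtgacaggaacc
The windows were chr5:90903699-90903898 (plus strand) for Cxcl2, chr11:83649379-83649578 (minus strand) for Ccl3, chr11:83593088-83593287 (minus strand) for Ccl6, chr17:35202008-35202207 (minus strand) for Tnf and chr17:57194182-57194381 (minus strand) for Tnfsf14. The Cxcl2 window held a kappa B match at -97 to -88 that overlapped its own reverse-strand match at -96 to -87. Such a match was present in 6.07% of 32851 promoter windows of the same length. Ccl3 and Tnf each held TTCCTC, the reverse complement of the PU.1 letters, and TATAA at -11 and -29. The shares of all windows with these matches were 19.0% and 4.93%. Tnfsf14 held TGAGTCA at -160 to -154 (AP-1, in 5.48% of windows) and GAGGAA at -59 to -54. The C/EBP letters (7.47% of windows) were in none of the 5 windows, and the Ccl6 window held none of the 5 motifs. A match is a description of letters and not of a bound site. Ccl4 and Osm are named only. Chromosome 11 holds 4 of the 7 genes (Ccl3, Ccl4, Ccl6 and Osm), chromosome 5 holds Cxcl2, and chromosome 17 holds Tnf and Tnfsf14. In the reference gene table Ccl9, Ccl6, Ccl3 and Ccl4 were 4 neighbouring coding genes, and the spans of Ccl3 and Ccl4 overlapped, so whether their probes can share signal was not tested.

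**Figure D1:**
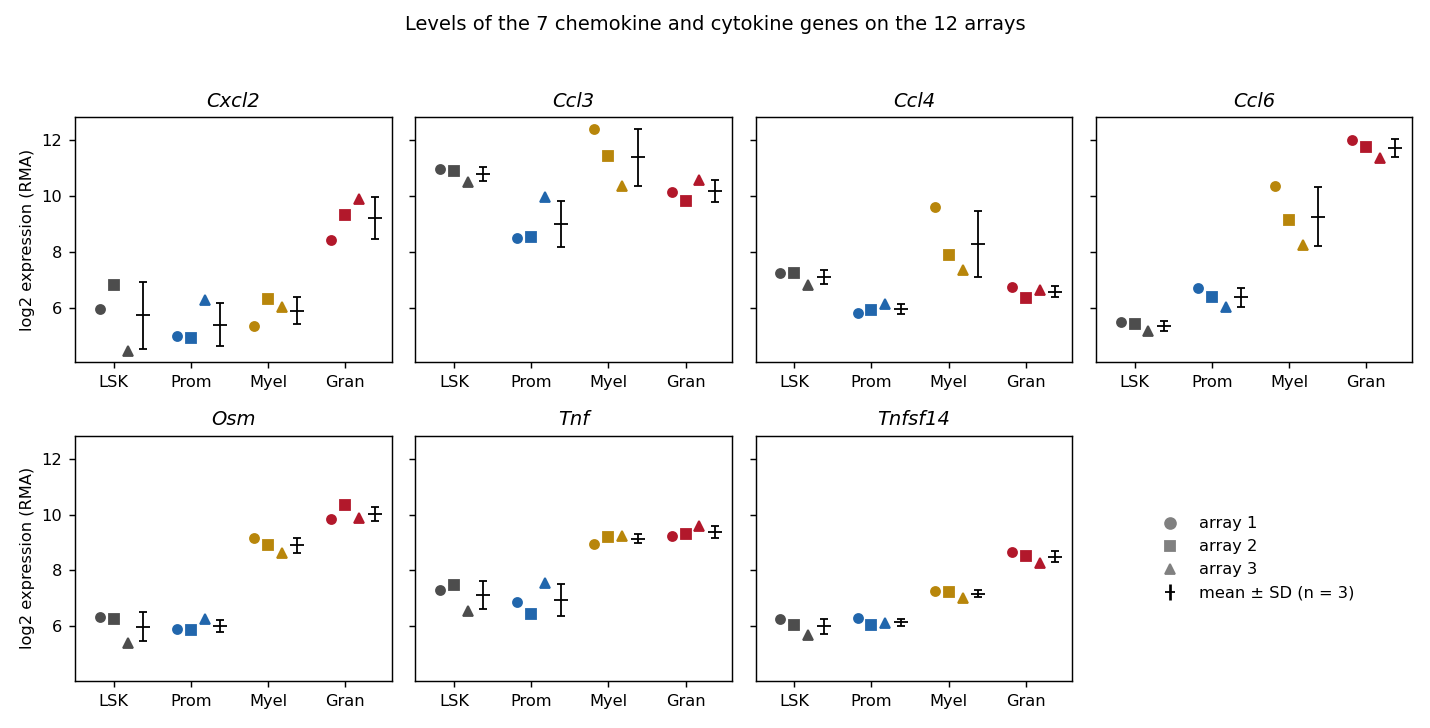
Log2 expression (y axis) of the 7 genes in LSK cells, promyelocytes (Prom), myelocytes (Myel) and granulocytes (Gran), with a symbol for each array and the mean ± SD (n = 3) beside them. Cxcl2 is higher in granulocytes than on any other array, Ccl6, Osm, Tnf and Tnfsf14 are high in myelocytes and granulocytes, and Ccl3 and Ccl4 have their lowest mean in promyelocytes and their highest in myelocytes.

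All 7 genes differed among the 4 populations by the moderated F test (adjusted p 0.00108 or less, limma), which 54.0% of all genes also did. They followed 3 courses. Ccl6, Osm, Tnf and Tnfsf14 became higher with the myelocyte stage, Cxcl2 with the granulocyte stage only, and Ccl3 and Ccl4 had their lowest mean in promyelocytes and their highest in myelocytes, with LSK cells and granulocytes between. Every group mean of the 7 genes lay above dim signal.

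Ccl6 had the widest range of group means. Its levels were 5.47, 5.40 and 5.15 in LSK cells, 6.72, 6.38 and 6.04 in promyelocytes, 10.37, 9.14 and 8.26 in myelocytes, and 12.01, 11.77 and 11.37 in granulocytes. No array of one population overlapped with any of another. Ccl6 was 7.33-fold higher in myelocytes than in promyelocytes (log2 difference 2.87 ± 0.37, SE; adjusted p = 1.18e-05, limma) and 5.50-fold higher in granulocytes than in myelocytes (2.46 ± 0.37; adjusted p = 0.000146). Granulocytes were 82.9-fold above LSK cells (95% interval 48.1 to 142.6), and myelocytes were 15.1-fold above them. Between promyelocytes and LSK cells the difference was 1.04 ± 0.37 and was not called (adjusted p = 0.0794), although it passed in a fit blocked by replicate number (adjusted p = 0.0136) and without array 1 or array 3 of myelocytes (0.00797 and 0.019). The order was granulocytes, myelocytes, promyelocytes and LSK cells, with the lowest neighbours not separated by the test.

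Osm was near its lowest level in LSK cells (6.32, 6.24 and 5.38) and promyelocytes (5.91, 5.87 and 6.25), and read 9.18, 8.90 and 8.63 in myelocytes and 9.86, 10.33 and 9.88 in granulocytes. The arrays of LSK cells and promyelocytes overlapped, and those of the later stages lay above them and apart from each other. Osm was 7.41-fold higher in myelocytes than in promyelocytes (2.89 ± 0.23; adjusted p = 8.93e-08, limma) and 2.18-fold higher in granulocytes than in myelocytes (1.12 ± 0.23; adjusted p = 0.0022). Promyelocytes and LSK cells differed by 0.03 ± 0.23 (95% interval -0.47 to 0.53; adjusted p = 0.96). The granulocyte difference over myelocytes lies close to the 2-fold limit, and fell under it without array 2 of granulocytes (0.97), without array 3 of myelocytes (0.99) and after quantile normalization (0.97).

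Tnf, which encodes the TNF ligand, read 7.30, 7.48 and 6.54 in LSK cells and 6.87, 6.42 and 7.54 in promyelocytes. In the later stages it read 8.95, 9.21 and 9.25 in myelocytes and 9.22, 9.31 and 9.60 in granulocytes. These values form a lower pair and a higher pair of populations, with overlap inside each pair and none between them. Tnf was 4.56-fold higher in myelocytes than in promyelocytes (2.19 ± 0.26; adjusted p = 6.5e-06, limma). The difference between granulocytes and myelocytes was 0.24 ± 0.26 (95% interval -0.32 to 0.81; adjusted p = 0.553), so a change of up to 1.75-fold upward lies inside the interval. The granulocyte level was 4.82-fold above LSK cells and 5.40-fold above promyelocytes. The lowest LSK array (6.54) and the highest promyelocyte array (7.54) were the same arrays 3 that stood apart in immediate early genes, whose part in the level of Tnf was not tested.

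Tnfsf14, the gene for LIGHT, had the smallest standard error of the 7 genes. It read 6.25, 6.04 and 5.69 in LSK cells, 6.28, 6.04 and 6.12 in promyelocytes, 7.26, 7.23 and 7.03 in myelocytes, and 8.67, 8.52 and 8.27 in granulocytes. Its course had a step at each of the later stages, with no overlap between myelocytes, granulocytes and the earlier populations. Tnfsf14 was 2.04-fold higher in myelocytes than in promyelocytes (1.03 ± 0.16; adjusted p = 1e-04, limma) and 2.48-fold higher in granulocytes than in myelocytes (1.31 ± 0.16; adjusted p = 2.75e-05). The difference between myelocytes and promyelocytes was under 2-fold without array 2 of promyelocytes (0.97) or array 1 of myelocytes (0.98). Promyelocytes and LSK cells differed by 0.15 ± 0.16 (adjusted p = 0.628).

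Cxcl2, the neutrophil attractant, read 5.96, 6.81 and 4.44 in LSK cells, 4.99, 4.90 and 6.28 in promyelocytes, 5.35, 6.31 and 6.03 in myelocytes, and 8.42, 9.33 and 9.90 in granulocytes. The granulocyte arrays lay above all 9 others, and the other 3 populations overlapped with each other. Cxcl2 was 9.98-fold higher in granulocytes than in myelocytes (3.32 ± 0.51; 95% interval 4.67 to 21.3-fold; adjusted p = 0.000198, limma), and 14.2-fold and 11.2-fold higher than in promyelocytes and LSK cells. The differences among the other 3 populations were -0.34 ± 0.51 (promyelocytes minus LSK cells, adjusted p = 0.744), 0.50 ± 0.51 (myelocytes minus promyelocytes, 0.534) and 0.16 ± 0.51 (myelocytes minus LSK cells, 0.854). Its SD within LSK cells was 1.20, and the low LSK array and the high promyelocyte array were again arrays 3. Without array 3 of LSK cells the difference between granulocytes and LSK cells was 2.83 (adjusted p = 9.35e-05). Without both arrays 3, promyelocytes were lower than LSK cells by 1.44 on the log2 scale (adjusted p = 0.0451), where the fit on all arrays made no call.

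Ccl3 was bright in LSK cells, at 10.98, 10.89 and 10.51. It read 8.49, 8.53 and 9.95 in promyelocytes, 12.39, 11.45 and 10.35 in myelocytes, and 10.16, 9.82 and 10.58 in granulocytes. Promyelocytes lay wholly under LSK cells and myelocytes, while granulocytes overlapped with all 3 other populations. Promyelocytes were 3.48-fold lower than LSK cells (-1.80 ± 0.43; adjusted p = 0.0108, limma), and myelocytes were 5.30-fold higher than promyelocytes (2.40 ± 0.43; adjusted p = 0.000308). The call against LSK cells was lost without array 1 of promyelocytes (-1.55, adjusted p = 0.0566) and the difference was larger, at -2.42, without both arrays 3 (adjusted p = 0.00459). Granulocytes differed from myelocytes by -1.21 ± 0.43, which was not called (adjusted p = 0.0576) and overlapped. That difference passed without array 3 of myelocytes (-1.74, adjusted p = 0.00497), without array 3 of promyelocytes (0.0255), without both arrays 3 (0.0279) and when dim genes were left out (0.0493). Granulocytes were called 2.29-fold above promyelocytes (adjusted p = 0.0312), but their arrays overlapped, and the call did not hold without array 1 or 2 of promyelocytes (adjusted p = 0.127 and 0.119), without array 1 or 3 of granulocytes (0.0656 and 0.118), after quantile normalization (0.89, adjusted p = 0.127) or with a robust trended prior (0.0759). Granulocytes minus LSK cells was -0.61 ± 0.43 (95% interval -1.53 to 0.31; adjusted p = 0.244), and myelocytes minus LSK cells was 0.60 ± 0.43 (adjusted p = 0.325), which passed without array 3 of myelocytes (1.13, adjusted p = 0.0347).

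Ccl4, a close relative of Ccl3, read 7.25, 7.23 and 6.83 in LSK cells and 5.81, 5.93 and 6.15 in promyelocytes. It read 9.62, 7.88 and 7.36 in myelocytes and 6.74, 6.36 and 6.63 in granulocytes. No pair of populations overlapped, and the order of means was myelocytes, LSK cells, granulocytes and promyelocytes. Myelocytes were 5.01-fold above promyelocytes (2.33 ± 0.38; adjusted p = 0.000148, limma) and granulocytes were 3.27-fold below myelocytes (-1.71 ± 0.38; adjusted p = 0.004). Array 1 of myelocytes carried much of the size of these differences: without it they were 1.66 (adjusted p = 1.07e-05) and -1.05 (adjusted p = 0.00158). Myelocytes were called 2.27-fold above LSK cells (1.18 ± 0.38; adjusted p = 0.0239), a call lost without that array (0.52, adjusted p = 0.0645), without array 3 of LSK cells (1.04, 0.0866) and without both arrays 3 (0.0933). Promyelocytes minus LSK cells was -1.14 ± 0.38 (adjusted p = 0.0644), granulocytes minus promyelocytes 0.61 ± 0.38 (adjusted p = 0.2) and granulocytes minus LSK cells -0.53 ± 0.38 (95% interval -1.35 to 0.29, adjusted p = 0.255). The lower populations in the order were thus not separated from each other by the test. The difference between promyelocytes and LSK cells passed with the replicate block (adjusted p = 0.0453), with each array centred on its 75th percentile (0.0475), and without array 1 or array 3 of myelocytes (0.000612 and 0.0242). The difference between granulocytes and promyelocytes passed after quantile normalization (1.04, adjusted p = 0.0321).

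**Figure D2:**
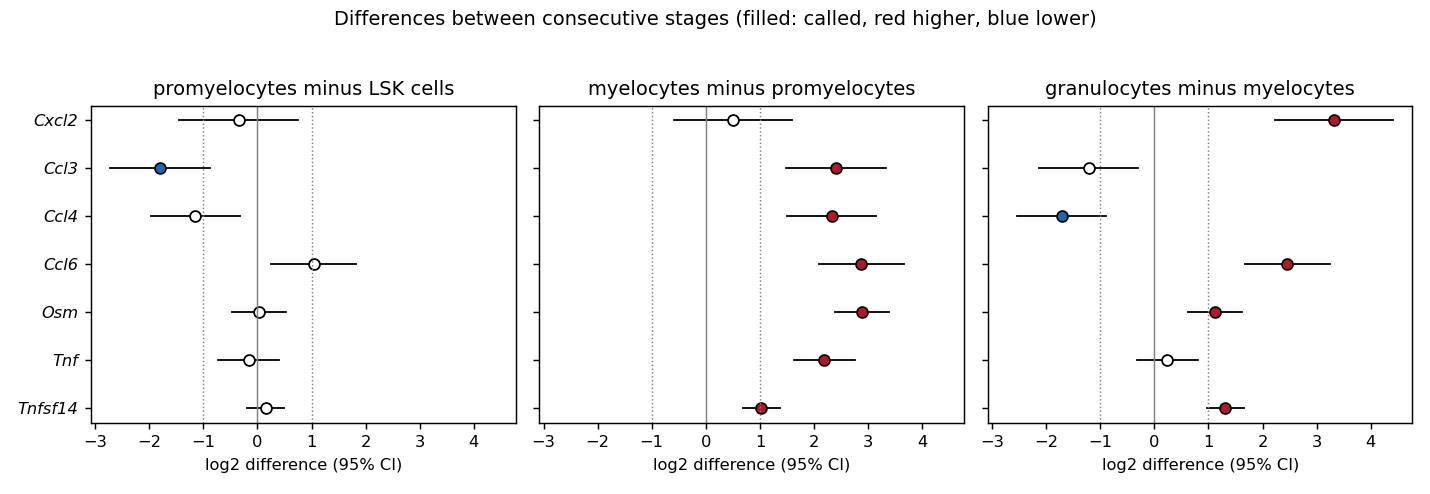
Log2 differences (x axis, points) with 95% intervals (bars) of the 7 genes between consecutive populations, where filled points are called (red higher, blue lower) and dotted lines mark 2-fold. In myelocytes minus promyelocytes 6 genes are called higher, and in granulocytes minus myelocytes 4 are called higher and Ccl4 lower.

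Counted over the genes, 1, 6 and 5 of the 7 were called at the 3 consecutive steps, and the last pair of counts was equal under some alternatives (6 and 6 with the unadjusted p, with dim genes left out or without array 3 of promyelocytes, and 5 and 5 without array 2 of promyelocytes or array 1 of myelocytes). In promyelocytes minus LSK cells 1 of the 7 genes was called lower (Ccl3) and 0 were called higher, where 2.75% and 1.61% of all genes were called. In myelocytes minus promyelocytes 6 of 7 were called higher, where 7.61% of all genes were, and the gene not called was Cxcl2. None of the 7 was called lower there (background 9.87%). In granulocytes minus myelocytes 4 of 7 were called higher (Cxcl2, Ccl6, Osm and Tnfsf14), where 2.35% of all genes were, and 1 was called lower (Ccl4), where 5.96% were. The median difference of the 7 genes was -0.16, 2.33 and 1.12 at these 3 steps, and that of all genes was 0.04, 0.01 and 0.09. Over the wider comparisons, 6 of 7 were called higher in granulocytes than in promyelocytes (background 10.1%), 5 of 7 in granulocytes than in LSK cells (9.59%) and 5 of 7 in myelocytes than in LSK cells (7.74%). The medians of the 7 genes there were 2.43, 2.49 and 1.18, beside 0.13, 0.17 and 0.05 for all genes. None was called lower in these 3 comparisons, where 16.3%, 16.5% and 10.8% of all genes were. The 3 comparisons with granulocytes share their arrays and are not independent.

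A second description is whether the arrays of both populations overlapped. In promyelocytes minus LSK cells 1 gene lay wholly higher and 2 wholly lower, where 13.5% and 12.9% of all genes did. In myelocytes minus promyelocytes 6 lay wholly higher and 0 lower (background 21.5% and 22.5%), and in granulocytes minus myelocytes 4 and 1 did (24.4% and 19.8%). The counts were 6 and 0 in granulocytes minus promyelocytes (31.9% and 25.3%), 5 and 1 in granulocytes minus LSK cells (35.2% and 26.8%), and 5 and 0 in myelocytes minus LSK cells (23.3% and 24.0%). Ccl4 is the gene that lay wholly lower in granulocytes than in LSK cells while its difference was not called.

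How all genes divided into higher and lower calls depended on the scaling. In granulocytes minus myelocytes 469 genes were called higher and 1188 lower as deposited, and 801 and 730 with each array centred on its 75th percentile. The same centring gave 3234 and 2448 in granulocytes minus promyelocytes (2020 and 3247 as deposited) and 2897 and 2521 in granulocytes minus LSK cells (1912 and 3293 as deposited). Centring on the median gave 427 and 446 in promyelocytes minus LSK cells (321 and 549 as deposited) and 1906 and 1706 in myelocytes minus LSK cells (1543 and 2150 as deposited). The 75th percentile moved the median difference of all genes to 0.37 in granulocytes minus myelocytes and to 0.51 in both other comparisons of granulocytes. None of the called differences of the 7 genes turned its direction under these scalings.

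The genes on chromosome 11 did not share a course. Over the 12 arrays, which share 4 populations, Ccl3 and Ccl4 had a Pearson r of 0.91, while Ccl3 and Ccl6 had 0.21 and Ccl4 and Ccl6 had 0.22. Ccl6, Osm and Tnfsf14 went together, with r of 0.98 for Ccl6 and Tnfsf14 and 0.96 for Osm with either. Tnf was most like Osm (0.96), and Cxcl2 was most like Tnfsf14 (0.84) and least like Ccl4 (-0.14). Similar patterns were sought among genes above dim signal in some population, leaving out predicted gene models and genes with only clone or sequence names. Those most like Osm were of Sema4f, C5ar2 and Max (r 0.99 each), and those most like Tnf were of Cpeb2, Trib1 and Rnf19b (0.99 each). Cyp4f18, Lrrc25 and Pacsin2 were most like Ccl6, and Slc15a3, Bcl10 and Klra2 were most like Tnfsf14 (0.99 each). Cxcl2 was most like Tln2 (0.97), Sstr4 (0.95) and Tiparp (0.95). Ccl3 and Ccl4 stood out in their neighbours: an immunoglobulin kappa variable gene led both lists (0.95 and 0.96), followed by Slamf7 (0.93) and Jchain (0.92) for Ccl3 and by Cd7 and Itga2 (0.94 each) for Ccl4. Jchain, the joining chain of secreted immunoglobulin, read 7.03, 6.34 and 6.31 in LSK cells, 3.29, 3.28 and 4.52 in promyelocytes, 8.04, 6.90 and 5.42 in myelocytes, and 4.17, 3.84 and 4.78 in granulocytes.

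Markers of other cells moved with Ccl3, Ccl4 and Ccl6 among the myelocyte arrays, and in bulk RNA a smaller number of cells and less RNA per cell cannot be told apart. All 9 listed basophil and mast cell genes were measured. Their mean level was 4.54 to 5.16 in LSK cells, 6.25 to 7.65 in promyelocytes, 9.06, 8.07 and 7.14 in myelocytes, and 5.02 to 5.22 in granulocytes. The highest myelocyte array was array 1, as for all 3 chemokines. Mcpt8, a basophil protease, read 12.15, 10.98 and 9.70 in myelocytes, and Fcer1a, the IgE receptor chain, read 10.12, 8.07 and 6.95. Cd200r3, a basophil surface receptor, read 7.68, 6.05 and 4.56. Of the list, 4 genes were called higher in myelocytes than in promyelocytes, where 7.61% of all genes were. In myelocytes minus LSK cells 7 were called higher (7.74% of all genes), and in granulocytes minus myelocytes 6 were called lower (5.96%). The mast cell protease gene Cma1 was dim in all 4 populations, with its lowest mean in myelocytes (3.32). Tpsb2 of the same list lay near the dim level and also had its lowest mean in myelocytes (4.49). Its means were 4.66 in LSK cells, 4.68 in promyelocytes and 4.84 in granulocytes.

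**Figure D3:**
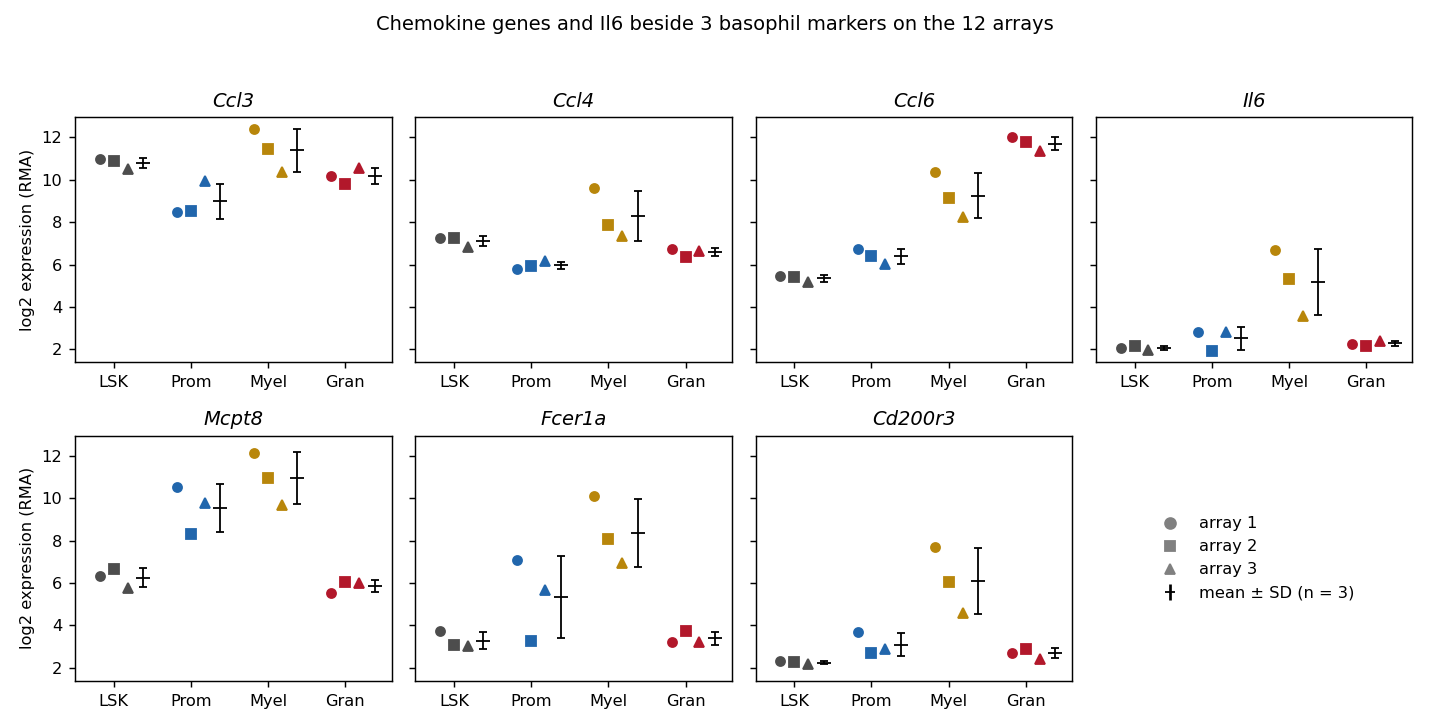
Log2 expression (y axis) of Ccl3, Ccl4, Ccl6 and Il6 (upper row) and of the basophil markers Mcpt8, Fcer1a and Cd200r3 (lower row) in the 4 populations, with a symbol for each array and the mean ± SD (n = 3). In myelocytes all 7 panels have array 1 highest and array 3 lowest, while Ccl3 in LSK cells and Ccl6 in granulocytes are high where these 3 markers are lower than in myelocytes and Hdc of the same list, not drawn, is highest in granulocytes (mean 11.6). Tpsb2 and Cma1 of that list, also not drawn, have their lowest mean in myelocytes.

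Other lists had the same order of myelocyte arrays, over narrower spans than the 3 chemokines. On these arrays the granulocyte list read 11.01, 10.93 and 10.78, and the list of NF-kB genes 7.89, 7.77 and 7.63. A megakaryocyte list (3 genes measured) read 6.66, 6.20 and 5.71, and a dendritic cell list 5.29, 5.17 and 4.79. The reverse order was seen in a list of erythroid genes (5.14, 5.33 and 5.44) and in the promyelocyte list (8.21, 8.24 and 8.36). Some lists had neither order, such as the eosinophil list (5.42, 5.56 and 5.29) and a B cell list (4.53, 4.59 and 4.33). The 12 measured monocyte and macrophage genes averaged 5.72 to 6.28 in LSK cells, 6.89 to 7.37 in promyelocytes, 7.51, 7.21 and 6.30 in myelocytes, and 6.46 to 7.15 in granulocytes. Their mean thus had the order of Ccl3, Ccl4 and Ccl6 on the myelocyte arrays. These genes did not share a course. Csf1r, Adgre1, Mpeg1, Cd163, C1qa, C1qb and C1qc had their highest mean in granulocytes, though C1qb and C1qc were almost as high in myelocytes. Ly86, Ms4a6c and Ccr2 were highest in promyelocytes, and Cx3cr1 and Vcam1 in myelocytes, narrowly over promyelocytes. A plasma cell list of 8 genes was chosen after the values were seen and holds the Slamf7 and Jchain named above. It averaged 5.68 to 5.82 in LSK cells, 4.84 to 5.21 in promyelocytes, 6.06, 5.70 and 5.29 in myelocytes, and 5.20 to 5.30 in granulocytes. Its myelocyte arrays also had the order of these chemokines. Jchain, Slamf7 and Xbp1 had their highest mean in myelocytes, and Sdc1, Mzb1, Derl3 and Pou2af1 in LSK cells. Sdc1 had its lowest mean in myelocytes (4.51), and Tnfrsf17 was dim in all 4 populations. The part of basophils, mast cells, monocytes, macrophages and plasma cells in the myelocyte levels of Ccl3, Ccl4 and Ccl6 was not tested. In LSK cells, where Ccl3 read 10.51 to 10.98, Fcer1a (3.05 to 3.73), Cd200r3 (2.17 to 2.33), Ms4a2 (3.19 to 4.47) and Cma1 (3.61 to 3.82) were dim. Other genes of the basophil and mast cell list were not dim there: Mcpt8 read 5.77 to 6.68, Prss34 6.10 to 6.54, Cpa3 7.05, 7.12 and 5.92, and Hdc, the histamine-forming enzyme, 7.68, 8.29 and 5.93, and the LSK array lowest in Cpa3 and Hdc was array 3, as for Ccl3. In granulocytes, where Ccl6 read 11.37 to 12.01, Fcer1a (3.21 to 3.73), Cd200r3 (2.43 to 2.90), Ms4a2 (3.39 to 3.77), Cpa3 (4.09 or less) and Cma1 (3.51 to 3.83) were dim. Hdc went the other way, at 11.52, 11.44 and 11.71 in granulocytes, against 11.35, 11.05 and 11.11 in myelocytes, and Mcpt8 (5.55 to 6.06) and Prss34 (6.06 to 6.84) were above dim signal. Osm, Tnf and Tnfsf14 spanned 0.55, 0.30 and 0.24 over the myelocyte arrays, against 2.04 for Ccl3, 2.25 for Ccl4 and 2.11 for Ccl6. Eosinophil genes (7 measured) averaged 7.75, 5.39 and 8.16 in promyelocytes and 5.79 or less elsewhere. In promyelocytes array 3 was highest and array 2 lowest, a rank order shared by Cxcl2, Osm and Tnf. The distances were unlike: array 1 lay near array 3 in the eosinophil list, but near array 2 in Cxcl2 (4.99, 4.90 and 6.28) and Osm (5.91, 5.87 and 6.25). The part of these cells in the promyelocyte levels was not tested.

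Receptors of the ligands were measured for 10 of 11 listed genes. Relative to promyelocytes, 4 were called higher and 1 lower in granulocytes, where 10.1% and 16.3% of all genes were. Relative to LSK cells 5 were called higher and 1 lower in granulocytes (9.59% and 16.5% of all genes). Cxcr2, the receptor of Cxcl2, was 16.0-fold higher in myelocytes than in promyelocytes (4.00 ± 0.29; adjusted p = 2.47e-08, limma) and 3.01-fold higher in granulocytes than in myelocytes (adjusted p = 0.00069). Its level was 12.20 to 12.42 in granulocytes, against 10.58 to 10.83 in myelocytes. Thus the receptor was called higher at the myelocyte stage, where Cxcl2 was not. Ccr1, the receptor of Ccl3 and Ccl6, was dim in LSK cells (2.64 to 2.96), read 3.48 to 4.69 in promyelocytes and reached 8.66 to 8.91 in myelocytes and 10.57 to 10.87 in granulocytes. Cxcr1 read 7.81, 7.43 and 7.73 in granulocytes, against 4.95, 5.20 and 4.94 in myelocytes (2.62 ± 0.22; adjusted p = 1.09e-06).

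The receptor chains for oncostatin M did not share a course. Il6st was 5.19-fold lower in myelocytes than in promyelocytes (-2.38 ± 0.29; adjusted p = 8.12e-06, limma) and lower again in granulocytes than in myelocytes (-1.22 ± 0.29; adjusted p = 0.00622), with 4.59, 4.82 and 5.20 in granulocytes. Osmr was dim on every array (2.95 to 3.53), and Lifr read 3.71 to 4.65, around the dim level, and was called in no comparison. For TNF, Tnfrsf1a was higher in granulocytes than in promyelocytes (1.56 ± 0.15; adjusted p = 1.74e-07) and LSK cells (2.01 ± 0.15), and Tnfrsf1b was called in no comparison. For LIGHT, Tnfrsf14 was called higher in granulocytes and in myelocytes than in LSK cells (1.49 and 1.28 ± 0.19), and Ltbr was called in no comparison.

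**Figure D4:**
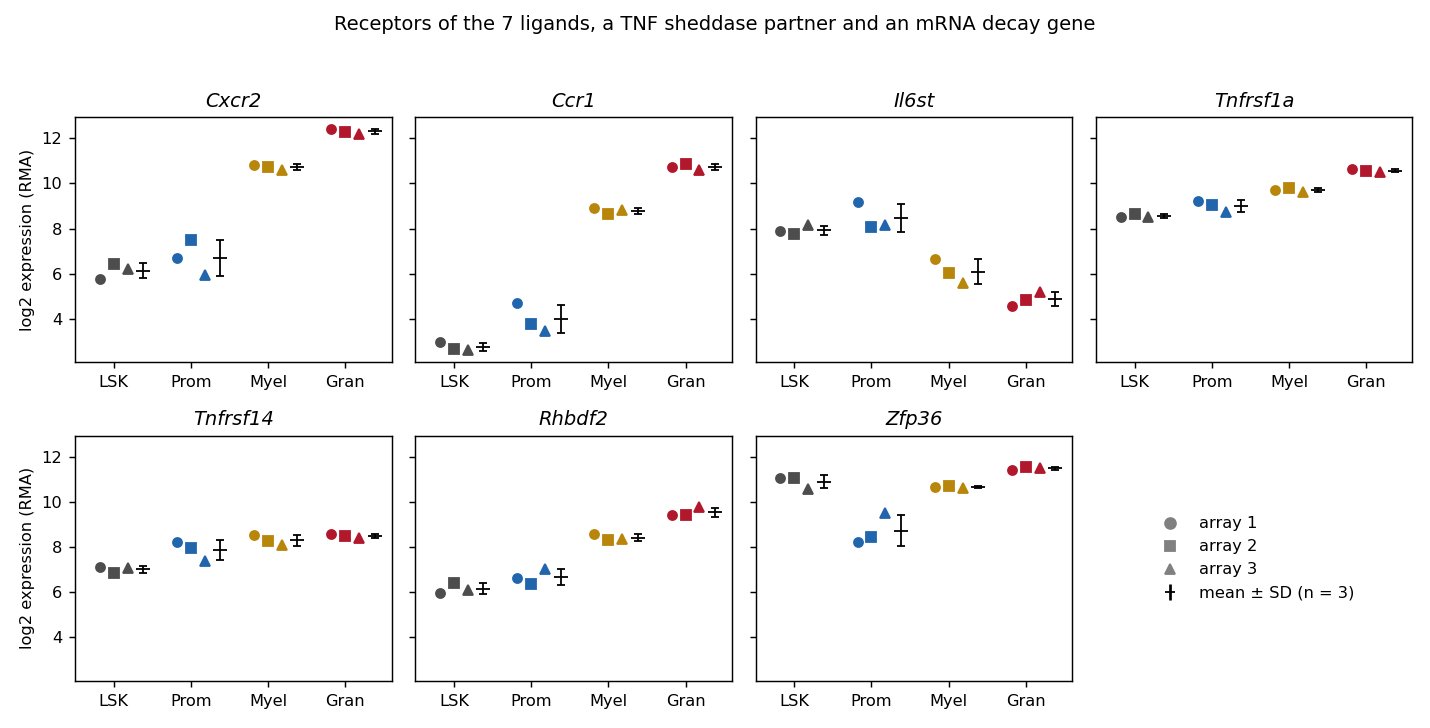
Log2 expression (y axis) of the receptor genes Cxcr2, Ccr1, Il6st, Tnfrsf1a and Tnfrsf14, of Rhbdf2 (a partner of the TNF sheddase) and of Zfp36 (a message decay gene) in the 4 populations, with a symbol for each array and the mean ± SD (n = 3). Cxcr2 and Ccr1 are highest in granulocytes, Il6st is lowest there, and Zfp36 has its lowest level in promyelocytes.

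Most relatives of the 7 genes were not called with them. All 30 other chemokine genes on the list were measured, 14 of them never above dim signal. Of the 30, 0 were called higher in any of the 6 comparisons by limma, where 1.61% to 10.1% of all genes were. In each comparison 5 to 11 of them had an unadjusted p under 0.05 in either direction. Only Ccl9 and Pf4 were called. Ccl9, the neighbour of Ccl6, was 4.29-fold lower in granulocytes than in myelocytes (-2.10 ± 0.47; adjusted p = 0.00365), with 5.84, 6.15 and 6.38 in granulocytes, against 9.61, 8.02 and 7.04 in myelocytes. It thus differed from Ccl6, which was higher in granulocytes, while its myelocyte arrays had the same order. Pf4, a platelet chemokine, was lower in granulocytes than in LSK cells (-1.71 ± 0.38; adjusted p = 0.00135).

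Among 14 measured TNF superfamily ligands, 9 never lay above dim signal. In myelocytes minus promyelocytes 2 of the 14 were called higher, where 7.61% of all genes were. Tnfsf13b, which encodes the B cell survival factor BAFF, read 10.45, 10.34 and 10.64 in myelocytes, against 5.44, 4.96 and 5.70 in promyelocytes (5.11 ± 0.19; adjusted p = 1.9e-11, limma). It was lower in granulocytes than in myelocytes (-1.07 ± 0.19; adjusted p = 0.000516). Ltb, lymphotoxin beta, was 5.85-fold higher in myelocytes than in promyelocytes (2.55 ± 0.27; adjusted p = 1.82e-06). Tnfsf10, the ligand TRAIL, fell at that step by 1.87 on the log2 scale. Of 7 measured relatives of Osm in the interleukin-6 family, 3 were called higher in myelocytes than in promyelocytes (7.61% of all genes). Ebi3 and Il27, which together form interleukin-27, were higher by 2.00 ± 0.19 and 1.02 ± 0.14. Il6 read 6.67, 5.30 and 3.57 in myelocytes and was dim in every other population (1.90 to 2.83), with the order of the basophil markers among the myelocyte arrays.

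Genes that act on such messages and proteins changed in part. Of 13 measured NF-kB subunits and inhibitors, 4 were called higher and 0 lower in granulocytes than in promyelocytes (10.1% and 16.3% of all genes). Nfkbiz, an inducible nuclear regulator, was higher in myelocytes than in promyelocytes (2.47 ± 0.35; adjusted p = 2.96e-05, limma), and Bcl3 was higher in granulocytes than in myelocytes (1.70 ± 0.20; adjusted p = 1.34e-05), with 8.13, 8.26 and 8.75 in granulocytes, against 6.53, 6.60 and 6.90 in myelocytes. Of 11 genes that bind AU-rich or related elements in messages, 4 were called higher and 3 lower in granulocytes than in promyelocytes. The shares of all genes there were 10.1% and 16.3%. Zfp36, which promotes the decay of Tnf messages, was lower in promyelocytes than in LSK cells (-2.17 ± 0.25; adjusted p = 4.55e-05) and higher in myelocytes than in promyelocytes (1.93 ± 0.25; adjusted p = 1.2e-05). It read 10.58 to 11.06 in LSK cells, 8.23, 8.45 and 9.50 in promyelocytes, 10.61 to 10.69 in myelocytes and 11.41 to 11.56 in granulocytes. Zfp36l1 was higher in granulocytes than in myelocytes (1.71 ± 0.26; adjusted p = 0.00015), and Khsrp was lower in myelocytes than in promyelocytes (-1.03 ± 0.17; adjusted p = 0.000117). Of the 4 genes for TNF shedding, Rhbdf2, which carries the protease ADAM17 to the cell surface, was the only gene called: 1.74 ± 0.18 higher in myelocytes than in promyelocytes and 1.12 ± 0.18 higher in granulocytes than in myelocytes (adjusted p = 1.65e-06 and 0.000312). These lists were drawn up with earlier results of these arrays known, and their counts are descriptions.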

How the data were processed

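Total RNA of the 12 samples was hybridised to 1-colour Affymetrix Mouse Gene 1.0 ST arrays. The authors deposited log2 expression values from justRMA, a Bioconductor function whose version the sources used here do not give, which corrects background, quantile normalizes probes and summarises probe sets. No further normalization was applied. The table held 34760 rows, of which 21640 carried 1 symbol, 1321 several and 11799 none. Rows with 1 symbol were used, taking the row with the highest mean for each gene, which left 19937 genes. Of these rows 21553 matched the reference gene table, which changed 0 symbols. The number of arrays limits the precision (median within-group SD 0.21).

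Genes were tested with limma 3.58.1 (lmFit and eBayes) under R 4.3.3. The 4 group means were fitted together, with 8 residual and 7.02 prior degrees of freedom, after a test on simulated data. The methods of the study use a moderated p with a 2-fold minimum, and their text names no adjustment, although the study also lists adjusted p-values. Calls on the unadjusted p were added as an alternative. The genes named are the 7 genes, called members of the lists, and the 3 genes most correlated with each of the 7 once predicted and clone-named genes were left out. The members and the lists were chosen with earlier results of these data known. Deviations from the group means of same-numbered arrays correlated between -0.25 and 0.25 over 18 pairs, and 7 pairs were over 0.1. Those of arrays of unlike number correlated between -0.37 and 0.29. In myelocytes and promyelocytes every same-numbered pair was over 0.1 (0.18, 0.12 and 0.20), and pairs of unlike number were 0.02 or less. The labels do not state a pairing, and values of this size do not establish one. No array pair held identical values. Gene order and chromosomes came from the reference gene table, whose coordinates are not printed. Probe sequences and miRNA measurements were not used here.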

Additional observations from a re-analysis of the deposited data

How the results depend on the processing

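Alternatives were centring on the median or the 75th percentile, quantile normalization, leaving out dim genes, the mean of all rows of a gene, the unadjusted p, a robust trended prior, the replicate block and leaving out each array. Leaving out array 3 of both LSK cells and promyelocytes was added after seeing the data. The number of the 7 genes called in promyelocytes minus LSK cells, 1 in the fit as reported, moved by over 1.5 times: it was 2 with 75th percentile centring, 3 with the unadjusted p, 3 with the replicate block (Ccl4 and Ccl6 joined Ccl3) and 2 without both arrays 3. Leaving out 1 array gave 0 to 3 there, with 0 without array 1 of promyelocytes and 3 without array 1 or array 3 of myelocytes. In the other comparisons leaving out 1 array gave 5 to 6 (myelocytes minus promyelocytes), 4 to 6 (granulocytes minus myelocytes), 5 to 6 (granulocytes minus promyelocytes), 5 (granulocytes minus LSK cells), 4 to 6 (myelocytes minus LSK cells) and 7 by the F test. Smaller moves were 6 in place of 5 in granulocytes minus myelocytes with the unadjusted p, with dim genes left out and without both arrays 3 (Ccl3 gained) and 4 after quantile normalization (Osm lost), 5 in place of 6 in granulocytes minus promyelocytes with the robust trended prior (Ccl3 lost), and 4 in place of 5 in myelocytes minus LSK cells without both arrays 3 (Ccl4 lost). The block changed no other call of the 7 genes. The labels do not say that the numbers pair the samples, so results with the block are only a hint.

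Changes of sign were limited to uncalled differences. In promyelocytes minus LSK cells Osm was -0.016 with 75th percentile centring, -0.27 without array 3 of LSK cells, -0.09 without array 3 of promyelocytes and -0.39 without both, Cxcl2 was 0.19 without array 2 of LSK cells, and Tnf was 0.03 without array 2 of LSK cells and 0.10 without array 2 of promyelocytes. In myelocytes minus LSK cells Cxcl2 was -0.49 without array 3 of LSK cells, -0.49 without both arrays 3, and -0.04 without array 2 of myelocytes. Over all fits with arrays left out, promyelocytes minus LSK cells ranged from -1.44 to 0.19 for Cxcl2, from -0.39 to 0.20 for Osm and from -0.74 to 0.10 for Tnf, and myelocytes minus LSK cells ranged from -0.49 to 0.70 for Cxcl2. The cause was not tested. Of single differences of the 7 genes with arrays left out, 516 kept direction and side of the threshold, 9 gained a call, 12 lost one and 9 changed sign. Under the other alternatives the numbers were 324, 8, 3 and 1.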
